A study of Mus musculus with 20 samples.

Results

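The mitogen-activated protein (MAP) kinases and the dual-specificity phosphatases (Dusp) that switch them off were examined as possible binding targets of the transcription factors Bcl11b and Foxp3 in mouse T cells. The members are the protein-coding mouse genes whose symbols begin with Mapk, Map2k, Map3k, Map4k or Dusp followed by a digit, 73 of the 21900 protein-coding genes in the RefSeq table of GRCm38.p6, the assembly whose coordinates mm10 uses. Of the 22081 distinct regions that the study lists for Bcl11b or Foxp3, 142 had a member as the protein-coding gene nearest to their centre, at distance 0 inside the gene and within 100 kb otherwise. These 142 regions fell at 53 of the 73 genes (72.6%), whereas 50.3% of all protein-coding genes had a region. The members were also longer, with a median length of 21.2 kb against 17.1 kb, and the part of length in the first difference was not tested. Nearness does not show that a region acts on the gene.

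The series is a ChIP-seq study of mice on the C57BL/6 background, with 12 immunoprecipitated and 8 input libraries in 9 groups. Wild-type (WT) Treg cells are CD4+YFP+ cells sorted from Foxp3-IRES-YFP-Cre mice, in which the Foxp3 locus also drives a fluorescent reporter and the Cre recombinase, and they gave 3 Bcl11b and 2 Foxp3 libraries. Cells labelled Tn gave 3 Bcl11b libraries and carry the same genotype and sort markers in the labels, which do not expand the name. KIKO cells, labelled as Treg cells without Foxp3, are CD4+GFP+ cells of Foxp3-GFPKO mice and gave 2 Bcl11b libraries, so they differ from the WT cells in the reporter allele as well as in Foxp3. Bcl11b-KO Treg cells are CD4+YFP+ cells of Bcl11b f/f Foxp3-IRES-YFP-Cre mice and gave 2 Foxp3 libraries. In these mice Bcl11b is deleted by the Cre of the Foxp3 locus, which the WT mice carry too. All cells came from spleen and draining lymph nodes. The labels give neither the age of the animals nor whether libraries came from separate animals.

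The data are positions only. Each of 4 comparisons has 3 lists, of regions specific to the first side, common to both, and specific to the second side, with no read count, score or replicate value, so the depth behind each call is unknown and there is no error between replicates. Main class shares are given with Wilson 95% intervals, which cover counting error only, beside the same share over all regions. No test over the members was made. As to the labelled cell type, all 5 Treg marker genes examined (Foxp3, Il2ra, Ctla4, Ikzf2 and Ikzf4) had regions, 26 in all, and so did 2 of 6 B cell, 2 of 6 myeloid and 8 of 12 CD8 T and NK cell marker genes. A bound region does not measure expression, so these counts do not say which cells were present.

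A MAP kinase cascade passes a signal through kinases in series: a Map4k can activate a Map3k, which phosphorylates a Map2k, which phosphorylates a terminal MAP kinase of the ERK, JNK or p38 branch. In T cells the cascades carry signals from the antigen receptor and from stress and cytokines to transcription factors. The typical Dusp enzymes remove the activating phosphates from terminal kinases, and several of their genes are themselves induced by the kinases, which makes them feedback brakes. Regions were found at 8 of 13 terminal kinase genes, 7 of 7 Map2k genes, 15 of 18 Map3k genes, 4 of 5 Map4k genes, 8 of 10 typical Dusp genes and 8 of 14 other Dusp genes. The 6 remaining symbols, which have letters after the digits and include JNK-interacting scaffold genes, had regions at 3. Over all protein-coding genes 50.3% had a region, and the median length was 17.1 kb. The median length was 67.8 kb for the Map2k genes, 63.1 kb for the Map3k genes and 89.4 kb for the Map4k genes. It was 23.2 kb for the terminal kinase genes, 9.72 kb for the typical Dusp genes and 12.9 kb for the other Dusp genes. The part of length in these counts by role was not tested.

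**Figure D1:**
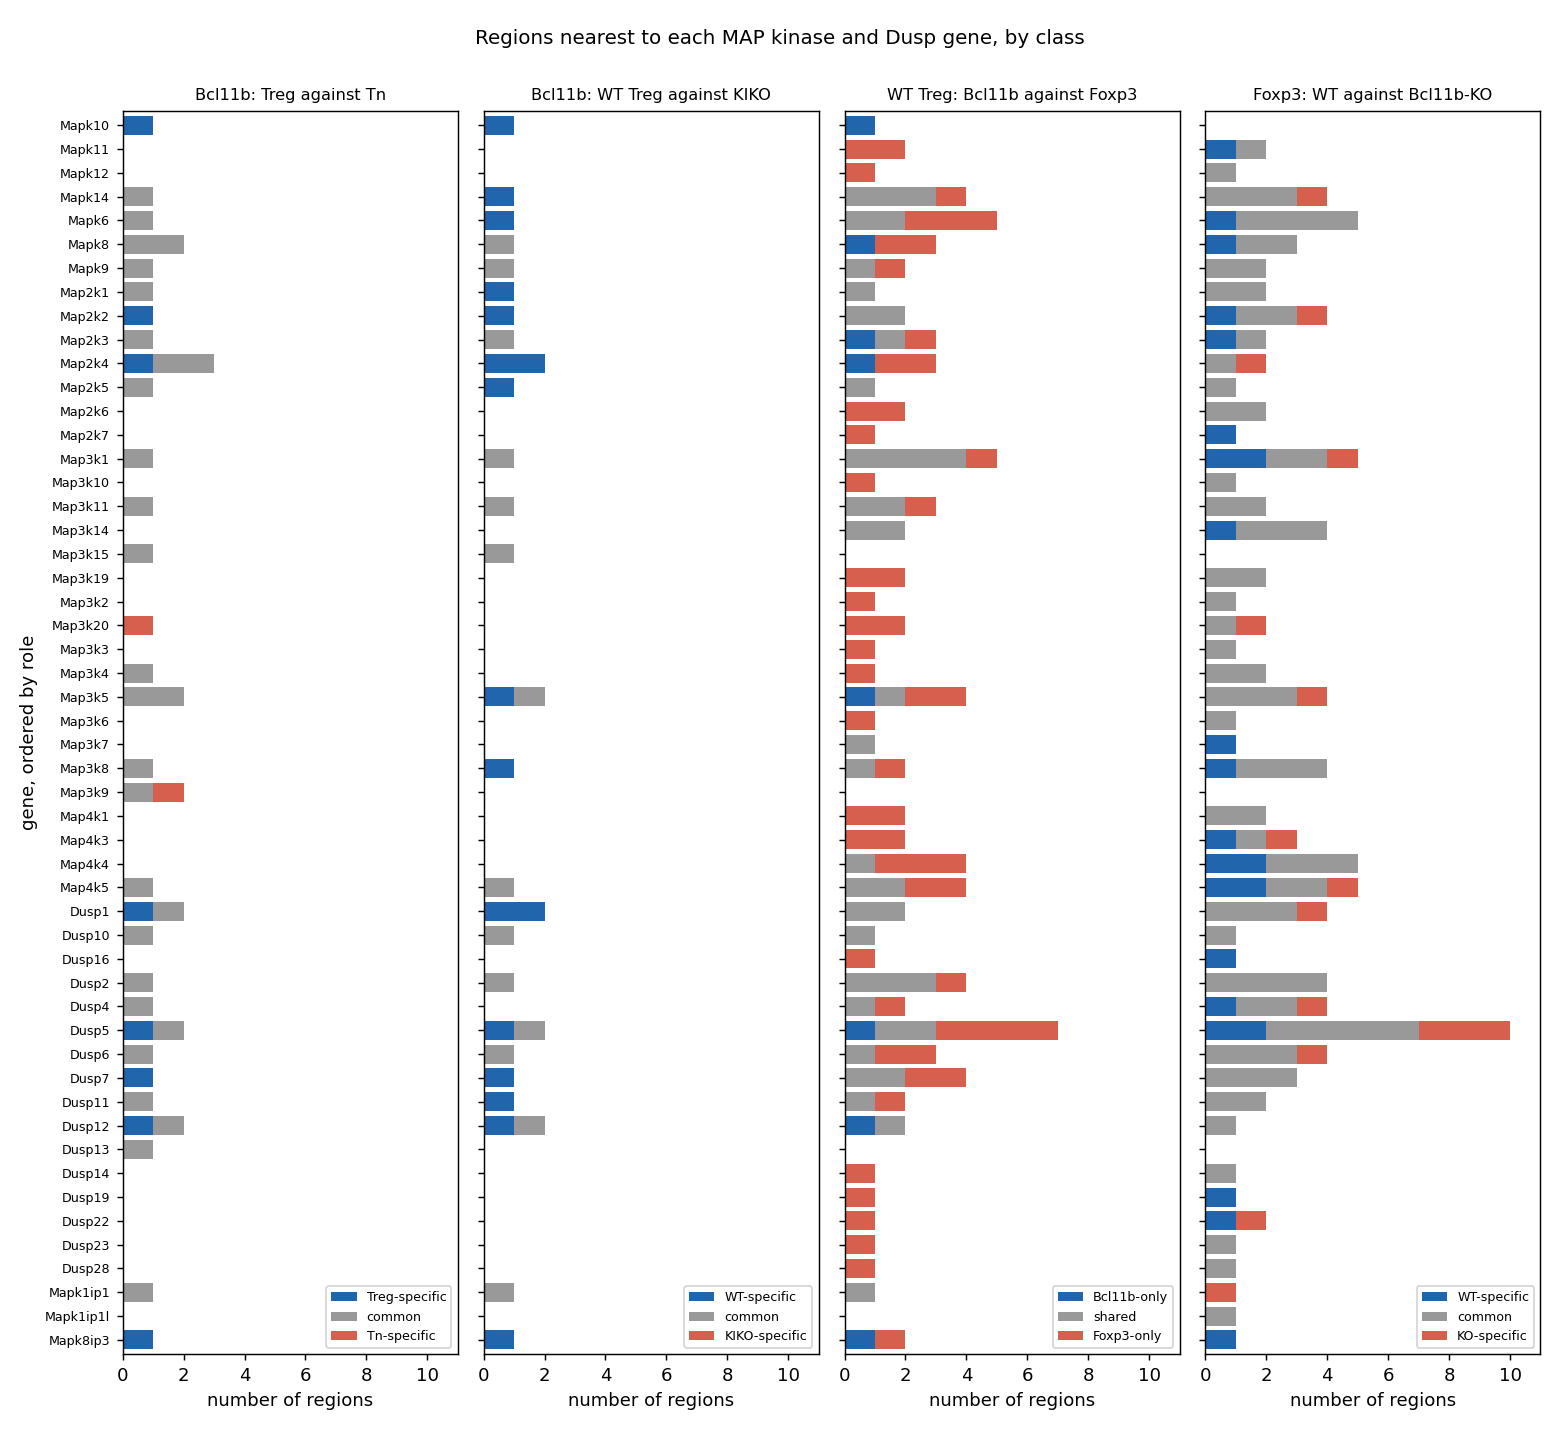
Number of regions (x axis) nearest to each of 52 of the 53 genes with a region (y axis, ordered by role), in one panel per comparison; colours give the class. Dusp5 has the longest bar, with 2 WT-specific, 5 common and 3 KO-specific Foxp3 regions in the last panel, and the 2 Bcl11b panels on the left are mostly single regions.

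More members had a Foxp3 region than a Bcl11b region, and the same held for genes in general. Over all protein-coding genes, 9131 had a WT Treg Foxp3 region and 6311 a Treg Bcl11b region. Of the 142 regions, 115 stood in a WT Treg Foxp3 list at 49 genes (81.0%, against 73.5% of all 22081 regions). A Bcl11b-KO Foxp3 list held 99 at 44 genes (69.7%, against 58.3%). A Treg Bcl11b list held 56 at 33 genes (39.4%, against 38.9%), a Tn Bcl11b list 31 at 27 genes (21.8%, against 23.6%) and a KIKO Bcl11b list 14 at 14 genes (9.86%, against 9.95%). Regions in Foxp3 lists alone were 84 of the 142 (59.2%, against 57.8%), and those in Bcl11b lists alone were 13 (9.15%, against 17.4%). No interval is given for these shares of region sets, so their differences from all regions were not judged. Over all protein-coding genes, 21850 regions lay at 11014 genes, and at members 142 regions lay at 53 genes. Of these members, 18 had 1 region, 14 had 2, and the most were the 11 of Dusp5, the gene of a nuclear phosphatase of ERK. The next were Mapk6, Map3k1 and Map4k5 with 6 regions each.

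Between Treg and Tn cells, most Bcl11b regions at members were common. Of 37 regions on the Treg side, 29 were common and 8 Treg-specific (21.6%, 11.4 to 37.2), and the share over all regions was 31.1%, inside that interval. The share at members was 36.8% of 19 regions when those within 1 kb of a gene end were left out. Over all regions, 13.6% of Treg-specific and 50.2% of common regions lie there, so leaving them out raises the share over all regions too. Among regions wider than 276 bp the share was 5.88% of 17 at members and 7.5% over all regions. That cut removes most Treg-specific regions, of which 1785 of 2025 in all are 198 bp wide. Tn-specific regions numbered 2 of 31 on the Tn side (6.45%, 1.79 to 20.7), against 13.9% over all regions. In the comparison with KIKO cells, which asks which Bcl11b sites are listed without Foxp3, 17 of 31 WT regions were WT-specific (54.8%, 37.8 to 70.8) and 14 were common, where all regions gave 62.3%. No KIKO-specific region lay at a member, 0 of 14 regions on the KIKO side, which allows a share of up to 21.4% by the limit of 3 counts in 14 (Wilson upper end 21.5%), while all regions gave 3.05%. Each of the 4 intervals holds the share over all regions.

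Where the factors were compared in WT Treg cells, 40 of 48 Bcl11b regions at members were shared with Foxp3 (83.3%, 70.4 to 91.3), above the 65.5% over all regions, and 8 were Bcl11b-only. Seen from Foxp3, 40 of 98 regions were shared (40.8%, 31.6 to 50.7), an interval that holds the 33.2% of all regions, and 58 were Foxp3-only. The first share depends on which regions count as Bcl11b regions. Of the 40 shared regions, 19 were in neither the Tn nor the KIKO comparison, so this comparison alone places Bcl11b there, as it does for 1758 of the 4738 shared regions in all. Among regions that those comparisons also list, 21 of 29 were shared (72.4%, 54.3 to 85.3), and the 54.4% over all such regions lies just inside that interval. Among regions wider than 276 bp, the largest of the widths most frequent in a specific list, the share was 24 of 25 (96.0%) at members and 96.5% in all. Of the 2497 Bcl11b-only regions in all, 2336 are 198 bp wide, so this cut removes most of that class. It cannot decide whether the difference between 83.3% and 65.5% holds.

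Foxp3 at members was mostly listed with and without Bcl11b. Of 105 WT Foxp3 regions, 81 were common with Bcl11b-KO cells and 24 were WT-specific (22.9%, 15.9 to 31.8), against 31.3% over all regions, which lies inside the interval. KO-specific regions numbered 18 of the 99 in Bcl11b-KO cells (18.2%, 11.8 to 26.9), beside 17.9% over all regions. Marker genes of CD8 T and NK cells had 11 KO-specific and 3 common regions, and those of myeloid cells 4 and 1. B cell markers had 0 and 1, T cell markers 3 and 8, and Treg markers 2 and 13. The 11 lay at Klrb1c, Klrk1, Nkg7, Gzmb and Ccl5, and the other markers of that list had none. Of the 4 myeloid ones, 3 lay at Itgam. The part of CD8 T, NK or myeloid cells in the KO-specific regions at members was not tested.

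**Figure D2:**
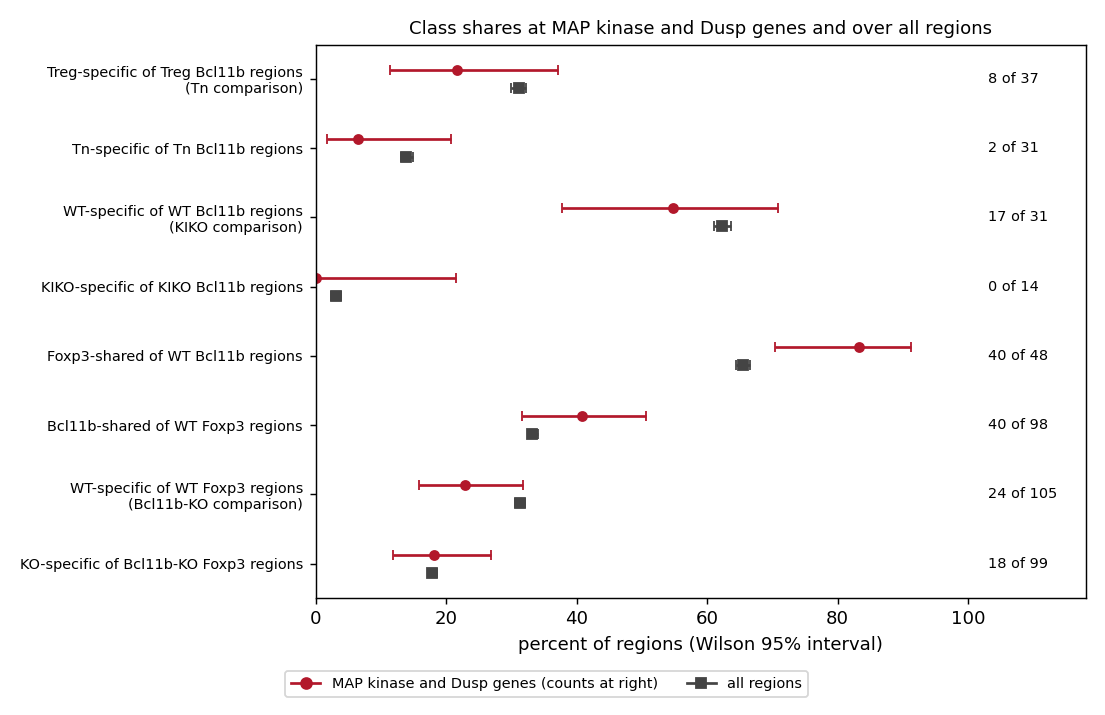
Percent of regions in a class (x axis) with Wilson 95% intervals, for the 142 regions at MAP kinase and Dusp genes (circles, counts at right) and for all regions (squares). The share of WT Bcl11b regions that Foxp3 shares, 83.3% at members and 65.5% over all regions, is the row where the members' interval lies apart from the value of all regions.

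Among the terminal kinases, 6 of 8 Bcl11b regions of the factor comparison were shared with Foxp3 (75.0%, 40.9 to 92.9), an interval that holds the 65.5% of all regions. Mapk3, which encodes ERK1, had no region, nor had Mapk4, Mapk7, Mapk13 and Mapk15. Mapk6, the gene of the atypical kinase ERK3, had 6 regions. One of them, 0.101 kb downstream of the start at chr9:75409817-75410014, was common to Treg and Tn cells, WT-specific against KIKO cells and shared with Foxp3, and the other 5, 1 of them shared, were in no Tn or KIKO list.

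The JNK genes each had Bcl11b. Mapk9, which encodes JNK2, had a region at chr11:49846452-49846721, 0.165 kb upstream of its start, that was common or shared in all 4 comparisons. It was 1 of 6 regions of the 142 (4.23%) that stood in all 5 region sets, against 3.83% of all regions. The other 5 were at Dusp2, Dusp5, Dusp6, Dusp12 and Mapk1ip1. Mapk8, which encodes JNK1, had 4 regions. They include a Bcl11b-only region inside the gene, 4.61 kb upstream of the nearest annotated start, that was common with Tn and with KIKO cells. Another, 0.008 kb from a start, was common to Treg and Tn cells and to both Foxp3 sets. A Foxp3-only, WT-specific region lay 0.266 kb upstream of a start. Mapk10, the gene of JNK3, had a single region, inside the gene and 11.8 kb downstream of the nearest annotated start. It was Treg-specific, WT-specific against KIKO cells and Bcl11b-only.

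Of the p38 genes, Mapk14, which encodes p38 alpha, held 4 regions, all inside the gene. The one at chr17:28692319-28692598, 0.11 kb upstream of an annotated start, was common to Treg and Tn cells, WT-specific against KIKO cells, shared with Foxp3 and common to both Foxp3 sets. The regions 4.88 and 5.78 kb downstream were shared between the factors, although the second is also listed as KO-specific, so the lists conflict on WT Foxp3 there. A further region, chr17:28691048-28691407, covers all 300 bases of the window around the outermost start of Mapk14, but its centre lies inside the neighbour Slc26a8, to which the rule assigns it. It was common with KIKO cells, shared with Foxp3 and WT-specific in the Foxp3 comparison. Mapk11 had 2 Foxp3-only regions and Mapk12 had 1.

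Each of the 7 Map2k genes had a region, and for 4 of them a region in a Bcl11b list lay at the start. Map2k1 encodes MEK1, which activates ERK, and its region 0.177 kb upstream of the start (chr9:64253621-64253943) was common to Treg and Tn cells, WT-specific against KIKO cells, shared with Foxp3 and common to both Foxp3 sets. Map2k5, which encodes the activator of ERK5, had the same 4 classes at its only region, 0.0165 kb downstream of the start. Map2k4 encodes an activator of JNK, and its region 0.082 kb downstream of the start was common with Tn and WT-specific against KIKO cells, yet listed as Foxp3-only in the comparison of the factors, so the lists conflict on Treg Bcl11b. Map2k3, whose product activates p38, differed: its start region, chr11:60931872-60932168, was Bcl11b-only, common with Tn and with KIKO cells, and in no Foxp3 list of the Bcl11b-KO comparison.

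Away from the starts, Map2k2, the gene of MEK2, carried a region 4.42 kb beyond the gene (chr10:81128986-81129250) that was Treg-specific, WT-specific against KIKO cells, shared with Foxp3 and WT-specific in the Foxp3 comparison. Next to it, 4.86 kb beyond the gene, lay a KO-specific Foxp3 region. Map2k4 also had a Treg-specific, Bcl11b-only region 8.75 kb downstream of its start. Map2k6 and Map2k7, which encode activators of p38 and of JNK, were in Foxp3 lists alone: both Map2k6 regions were common to WT and Bcl11b-KO cells and the Map2k7 region was WT-specific.

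The Map3k genes held 36 regions, and 0 of the 8 listed for Bcl11b in Treg cells against Tn cells were Treg-specific (0.0 to 32.4, an interval that holds the 31.1% of all regions). Map3k5 encodes ASK1, a kinase of the stress response, and had 5 regions. Those at 0.802 and 0.374 kb upstream of the nearest start were common to Treg and Tn cells, but the first was common with KIKO cells and Bcl11b-only, while the second was WT-specific against KIKO cells and shared with Foxp3. The lists keep them as separate regions. A KO-specific region lay 2.79 kb downstream of the start.

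Map3k1, which encodes MEKK1, had 6 regions, 4 of them shared between the factors. The one 11.7 kb downstream of the start was also common with Tn and KIKO cells, the one 1.33 kb downstream was WT-specific in the Foxp3 comparison, and one 17.8 kb upstream was KO-specific. Map3k14 encodes NIK, the kinase of the noncanonical NF-kB pathway, and 4 Foxp3 regions lay there. The one 0.194 kb upstream of the start was WT-specific and shared with Bcl11b, and the 3 inside the gene were common to both Foxp3 sets, with 1 of them shared with Bcl11b. Map3k7, the gene of TAK1, had 1 region, 0.224 kb upstream of a start, shared between the factors and WT-specific in the Foxp3 comparison. Map3k8, the gene of Tpl2, had 4 regions, of which the one 0.466 kb outside the gene was common with Tn cells, WT-specific against KIKO cells, shared, and WT-specific for Foxp3.

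The 2 Tn-specific regions at members were both at Map3k genes. One lay 7.67 kb upstream of Map3k9, the gene of MLK1, and was in no other comparison. The other lay 3.4 kb upstream of Map3k20, the gene of ZAK, and was also a Foxp3-only region common to WT and Bcl11b-KO cells. A second Map3k20 region, 2.74 kb upstream, was both Foxp3-only and KO-specific, a conflict on WT Foxp3. Map3k12, Map3k13 and Map3k21 had no region by the rule. A region of 220 bases, chr15:102516983-102517202, lay wholly inside a window around a start of Map3k12, but the rule assigns it to Tarbp2. It was Foxp3-only and WT-specific in the Foxp3 comparison.

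At the Map4k genes 12 of 16 regions were in a WT Foxp3 list of the factor comparison. Of these, 3 were shared with Bcl11b (25.0%, 8.89 to 53.2, against 33.2% of all regions), and these 3 were all the Bcl11b regions of that comparison at these genes. Map4k1 encodes HPK1, a brake on T cell receptor signalling, and its 2 regions were Foxp3-only and common to WT and Bcl11b-KO cells. Map4k4 had 5 regions, 3 common and 2 WT-specific for Foxp3, 1 of the latter shared with Bcl11b. Map4k5 had 6, spread over its gene body from 0.471 to 68.0 kb downstream of the start, and the one 13.9 kb downstream (chr12:69879192-69879389) was common with Tn and with KIKO cells and shared with Foxp3. A further region, common to Treg and Tn cells, covers 210 bases of the window around the start of Map4k5, but the rule assigns it to Atl1. Map4k3 had 1 region of each class in the Foxp3 comparison. Over the 13 WT Foxp3 regions of this role, 5 were WT-specific (38.5%, 17.7 to 64.5), an interval that holds the 31.3% of all regions.

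The typical Dusp genes, which are short, held 34 regions at 8 genes. Promoter sequences are shown for 4 of them and for 3 other members because a listed region covers bases among the 250 before the start. All are the 250 bases before the outermost annotated start, 5′ to 3′ on the strand of the gene, from RefSeq on GRCm38.p6. In the first 3, capitals mark a motif found by search: a cAMP response element (CRE) core TGACGTC in Dusp1, an ETS core CCGGAAG in Mapk8ip3 and an AP-1 core TGANTCA in Map2k6, on either strand.
Dusp1, chr17:26508473-26508722, minus strand: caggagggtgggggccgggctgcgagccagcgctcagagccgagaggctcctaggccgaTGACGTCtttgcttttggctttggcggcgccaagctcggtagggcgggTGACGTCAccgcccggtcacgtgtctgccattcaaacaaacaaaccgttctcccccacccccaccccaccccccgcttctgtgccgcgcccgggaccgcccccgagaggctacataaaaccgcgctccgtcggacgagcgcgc
Mapk8ip3, chr17:24936978-24937227, minus strand: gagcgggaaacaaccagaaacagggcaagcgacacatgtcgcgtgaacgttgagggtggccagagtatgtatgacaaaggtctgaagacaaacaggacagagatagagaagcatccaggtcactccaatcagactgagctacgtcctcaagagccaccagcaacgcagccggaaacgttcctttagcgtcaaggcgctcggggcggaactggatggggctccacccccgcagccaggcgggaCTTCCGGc
Map2k6, chr11:110398852-110399101, plus strand: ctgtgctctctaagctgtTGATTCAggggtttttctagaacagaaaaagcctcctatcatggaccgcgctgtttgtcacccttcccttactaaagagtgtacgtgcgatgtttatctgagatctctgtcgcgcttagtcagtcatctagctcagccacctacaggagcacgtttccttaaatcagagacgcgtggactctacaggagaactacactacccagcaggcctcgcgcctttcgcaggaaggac
In the next 4, capitals mark the bases that lie inside a listed region, and none of the 5 motifs searched was found.
Map2k3, chr11:60931804-60932053, plus strand: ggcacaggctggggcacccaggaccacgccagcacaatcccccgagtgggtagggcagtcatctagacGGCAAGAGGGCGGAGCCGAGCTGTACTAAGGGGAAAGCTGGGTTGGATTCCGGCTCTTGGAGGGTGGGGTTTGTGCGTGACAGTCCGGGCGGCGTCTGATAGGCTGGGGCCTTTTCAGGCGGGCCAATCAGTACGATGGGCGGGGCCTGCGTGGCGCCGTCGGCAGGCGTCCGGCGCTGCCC
Dusp2, chr2:127335909-127336158, plus strand: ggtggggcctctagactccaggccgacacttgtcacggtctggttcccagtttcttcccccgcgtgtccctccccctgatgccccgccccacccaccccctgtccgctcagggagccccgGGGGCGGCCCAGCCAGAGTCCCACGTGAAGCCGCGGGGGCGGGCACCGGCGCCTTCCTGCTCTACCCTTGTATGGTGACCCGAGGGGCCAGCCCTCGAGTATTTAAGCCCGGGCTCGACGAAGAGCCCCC
Dusp5, chr19:53528895-53529144, plus strand: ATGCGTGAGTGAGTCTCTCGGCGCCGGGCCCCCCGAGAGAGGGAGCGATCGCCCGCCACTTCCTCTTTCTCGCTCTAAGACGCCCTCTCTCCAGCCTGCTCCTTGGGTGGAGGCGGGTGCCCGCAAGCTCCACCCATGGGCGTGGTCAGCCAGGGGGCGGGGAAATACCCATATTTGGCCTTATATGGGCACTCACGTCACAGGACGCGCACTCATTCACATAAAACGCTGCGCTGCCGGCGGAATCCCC
Dusp6, chr10:99262981-99263230, plus strand: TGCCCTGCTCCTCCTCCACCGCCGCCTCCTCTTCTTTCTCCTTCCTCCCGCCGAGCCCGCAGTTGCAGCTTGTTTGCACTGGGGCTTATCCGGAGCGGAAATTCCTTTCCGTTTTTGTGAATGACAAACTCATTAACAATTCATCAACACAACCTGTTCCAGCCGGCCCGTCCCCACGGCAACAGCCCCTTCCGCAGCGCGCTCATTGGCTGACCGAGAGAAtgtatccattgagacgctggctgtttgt

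The region over the start of Dusp1, the gene of a nuclear phosphatase of p38 and JNK, was the widest at any member, 594 bp at chr17:26508154-26508747. It covered all 250 bases shown, with their 2 CRE stretches beginning 191 and 143 bases before the start. This region was common to Treg and Tn cells, WT-specific against KIKO cells, shared with Foxp3 and common to WT and Bcl11b-KO cells. A second Dusp1 region, chr17:26502882-26503191, lay 2.55 kb beyond the other end of the gene and was Treg-specific, WT-specific against KIKO cells and shared with Foxp3. Upstream lay 2 regions in Foxp3 lists only, a KO-specific one at 6.41 kb and a common one farther out. Dusp1 therefore had Bcl11b at 2 regions in WT Treg cells and at neither in the KIKO lists.

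Dusp2, which encodes a nuclear phosphatase induced in activated T cells, and Dusp6, which encodes a cytoplasmic phosphatase of ERK, had a different record. At Dusp2 the region 2.03 kb upstream of the start (chr2:127333927-127334326) was common or shared in all 4 comparisons. The regions 0.932 and 0.0205 kb upstream were shared between the factors and common to both Foxp3 sets, but were in no Tn or KIKO list. The last of them, chr2:127336029-127336248, held 130 of the 250 bases shown. At Dusp6 the region 1.55 kb upstream (chr10:99261479-99261892) was common or shared throughout, whereas the one just upstream, chr10:99262927-99263202, which ends short of the start, was Foxp3-only and common to both Foxp3 sets. Dusp6 also had a KO-specific region 7.19 kb beyond the gene.

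Dusp5 had 11 regions between 67.6 kb upstream and 16.3 kb downstream of its start. Bcl11b was listed at 3 of them. The farthest Bcl11b region, 64.3 kb upstream (chr19:53464701-53465065), was common or shared in all 4 comparisons. The one over the start, chr19:53528894-53529169, was shared between the factors and WT-specific for Foxp3, and was in no Tn or KIKO list. The one 0.84 kb beyond the gene, chr19:53542550-53542747, was Treg-specific, WT-specific against KIKO cells and Bcl11b-only.

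Foxp3 was listed at 10 Dusp5 regions in the Bcl11b-KO comparison. Both WT-specific ones were at the start and 9.05 kb upstream of it, the 3 KO-specific ones lay 67.6, 51.8 and 49.4 kb upstream, and 4 of the 5 common ones lay inside or just beyond the gene. The fifth common region, 64.3 kb upstream, lay among the KO-specific ones. The next protein-coding gene to the far upstream regions is Smndc1, 70.8 kb from the outermost and 89.0 kb from the innermost of them. Without Dusp5, 16.5% of the Bcl11b-KO Foxp3 regions at members were KO-specific.

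**Figure D3:**
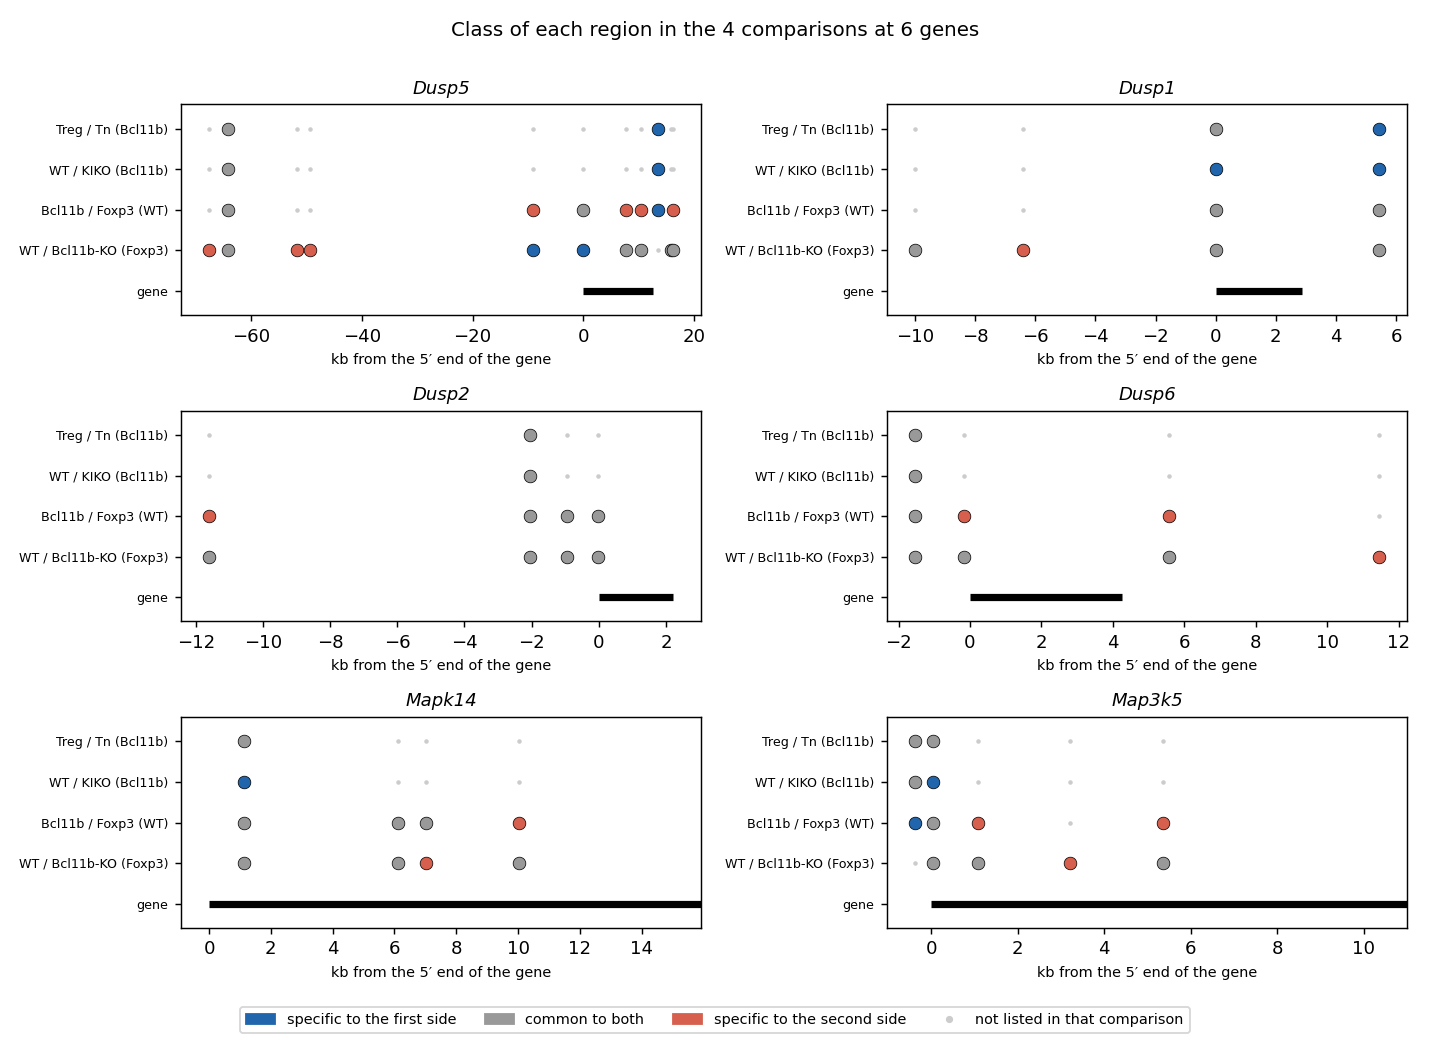
Region centres in kb from the 5′ end of 6 genes (x axis; the black bar is the gene, which runs on beyond the right edge for Mapk14 and Map3k5), with the class of each region in the 4 comparisons (rows; blue is specific to the side named first in the row, red to the side named second). At Dusp1 both Bcl11b regions are WT-specific against KIKO cells, at Dusp2 and Dusp6 the single Bcl11b region of that row is common, and at Dusp5 the red KO-specific points stand 49.4 to 67.6 kb upstream.

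Other typical phosphatases had 4 regions or fewer. Dusp7, the gene of a cytoplasmic phosphatase of ERK, had a Treg-specific region 4.88 kb upstream of the nearest start that was WT-specific against KIKO cells and shared with Foxp3, in addition to 3 Foxp3 regions common to WT and Bcl11b-KO cells, 1 of them shared with Bcl11b. Dusp4 had 4 regions, with 1 KO-specific and 1 WT-specific outside the gene and 2 common inside it. Of these 2, 1 was common to Treg and Tn cells and the other was shared between Bcl11b and Foxp3. Dusp10, whose product acts on p38 and JNK, had a region 18.2 kb downstream of the start that was common with Tn and KIKO cells and shared with Foxp3. Its own start window was overlapped by a region, shared and common to both Foxp3 sets, that the rule assigns to 1700056E22Rik. Dusp16 had a single Foxp3-only, WT-specific region, and Dusp8 and Dusp9 had none. Over the typical Dusp genes, 12 of 13 Bcl11b regions were shared with Foxp3 (92.3%, 66.7 to 98.6), against 65.5% of all regions, and 5 of those 12 were in no Tn or KIKO list. Of 25 WT Foxp3 regions there, 4 were WT-specific, with an interval of 6.4 to 34.7 that holds the 31.3% of all regions.

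Of the remaining genes, Dusp12 had a start region common or shared in all 4 comparisons and a Treg-specific, Bcl11b-only region 8.52 kb downstream. Dusp22, whose product dephosphorylates the T cell kinase Lck, had 2 Foxp3 regions, 30.0 kb upstream (WT-specific) and 56.0 kb upstream (KO-specific). Mapk8ip3 encodes a JNK-interacting scaffold protein. Its region over the start, 0.0695 kb upstream, was Foxp3-only and WT-specific, and 1.4 kb upstream lay a region that was Treg-specific, WT-specific against KIKO cells and Bcl11b-only. The region in Mapk1ip1 was common or shared in the first 3 comparisons and KO-specific in the last, where the lists conflict on WT Foxp3, and it lies within 1 kb of the start of Ppp2r2d.

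The 8 Treg-specific regions belonged to Mapk10, Map2k2, Map2k4, Dusp1, Dusp5, Dusp7, Dusp12 and Mapk8ip3, 1 each. Each was also WT-specific against KIKO cells; both comparisons use the WT Treg Bcl11b set, so the agreement is not a separate result. Of the 8, those at Map2k2, Dusp1 and Dusp7 were shared with Foxp3 and the other 5 were Bcl11b-only. Neither overlap is given here for all Treg-specific regions, so neither can be read as a trait of members. Their width was exactly 198 bp in 6 cases, the most frequent width in the Treg-specific list, where 1785 of 2025 regions have it. The 8 Bcl11b-only regions were those 5 and 1 each at Mapk8, Map2k3 and Map3k5, which were common with Tn and with KIKO cells.

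Class went with distance from the start. Start sites were known for 119 of the 142 regions, and 43 of these lay within 1 kb of a start of their gene. None of the 8 Treg-specific regions did, at a median of 8.63 kb, whereas 17 of 25 regions common to Treg and Tn cells did, at a median of 0.223 kb. Among Foxp3 regions, 9 of 18 WT-specific, 27 of 69 common and 1 of 14 KO-specific regions did. The low Treg-specific and KO-specific values are not particular to members. Over all regions, 13.6% of Treg-specific and 50.2% of common Bcl11b regions lay within 1 kb of either end of a gene. For Foxp3 the same shares were 42.9% of WT-specific, 47.8% of common and 14.2% of KO-specific regions. At members 48 of 142 regions did (33.8%, 26.5 to 41.9), against 37.9% of all.

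**Figure D4:**
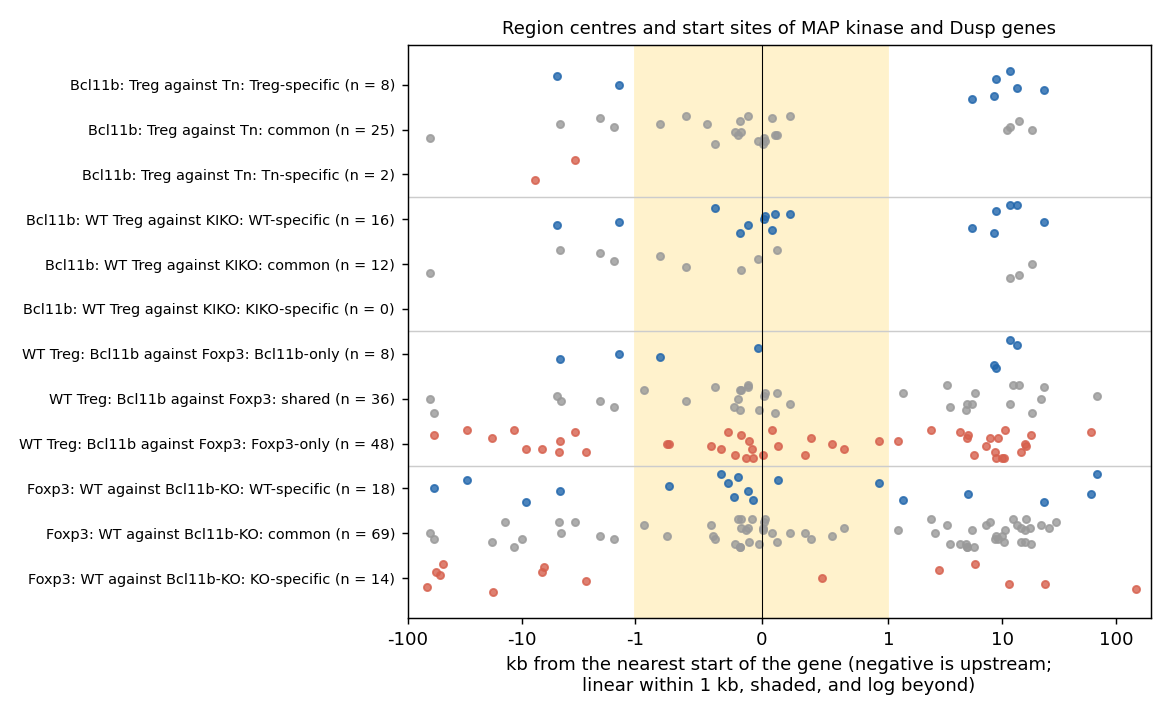
Distance of region centres from the nearest start of their member gene in kb (x axis, linear within 1 kb and logarithmic beyond, negative upstream), in 1 row per class; points are single regions with a known start, spread vertically only to separate them. The Treg-specific row has no point within 1 kb of a start and the KO-specific row has 1, while 17 of 25 points of the common row between Treg and Tn cells lie there.

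Promoter windows of 300 bases, from 250 before to 50 after a start, were at hand for 55 members, 70 windows in all, and 33 of them were overlapped by a listed region. Searched on both strands, the CRE core TGACGTC was in 3 of 70 member windows and 3.21% of all 32851 windows, the ETS core CCGGAAG in 5 and 8.86%, and the AP-1 core TGANTCA in 4 and 7.81%. The forkhead core TGTTTAC and the RUNX core TGTGGTT were in 0 of 70, and in 3.65% and 5.27% of all windows. No single stretch can match both the CRE and the AP-1 core, and a match on one strand can overlap one of the same core on the other. Of the windows with a region, Dusp1 alone held the CRE core, Map3k11, Map4k1 (whose region the rule assigns to Eif3k) and Mapk8ip3 the ETS core, and Map2k6 and Map3k10 the AP-1 core.

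Other genes of the pathway, from regulators of Ras to kinase substrates, were taken as a list of 66. Of these, 63 had a region (95.5%), 203 in all, against 50.3% of all protein-coding genes. The list was chosen with earlier results of these data known, and the part of gene length in this difference was not tested. For the Tn comparison 17 of 68 Treg-side regions were Treg-specific (25.0%, 16.2 to 36.4, all regions 31.1%), and against KIKO cells 34 of 59 were WT-specific (57.6%, 44.9 to 69.4, all regions 62.3%). With Foxp3, 53 of 70 Bcl11b regions were shared (75.7%, 64.5 to 84.2, all regions 65.5%), and 37 of 140 WT Foxp3 regions were WT-specific (26.4%, 19.8 to 34.3, all regions 31.3%). Each of these 4 intervals holds the share over all regions. Among the genes of this list, Rasa2 and Elk3 had the most regions, 9 each, and Grb2 had 8. Against KIKO cells Rasa2 had 2 common regions, Elk3 1 WT-specific, and Grb2 1 WT-specific and 2 common. Egr1, an immediate early gene downstream of ERK, had 7 regions, with 4 shared between the factors and 4 WT-specific against KIKO cells. Fos had 6, 3 of them shared, and Gadd45b, which encodes an activator of Map3k4, had 6, of which 5 were common to both Foxp3 sets.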

How the data were processed

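Bcl11b or Foxp3 was precipitated from sorted mouse CD4+ T cells and the DNA sequenced. The submitters' processing notes name HOMER 4.10.1, HISAT2 2.1.0, build mm10, Trim Galore 0.4.2, SAMtools 1.3, cutadapt 1.12, deepTools and FastQC, with no roles. Peak threshold, pooling of replicates and the rule for a common region: not given in the sources used here. Deposited by the authors were 12 lists with 3 columns (chromosome, start, end) and no other value, so the other quantities here are counts made from those positions. Regions are identical columns 1 to 3, starts were counted from 1, and no member region stood in 2 classes of 1 comparison. Where a centre lay inside 2 genes the shorter was taken (2 regions, at Map3k11 inside Pcnx3). Gene positions and promoter windows came from RefSeq (GRCm38.p6); no exon, intron or UTR annotation was used. Start sites came from the windows, which cover 55 of 73 members. The members and lists were chosen with earlier results of these data known. Named genes are a set of 23 cascade genes, the 12 members with most regions, and every member with a Treg-specific, Tn-specific, KIKO-specific, Bcl11b-only or KO-specific region; others are named to account for every group. Of the members with a region, 1 is in the counts and is not reported here by name. The assignment was tested on simulated data and matched a plain search at 1000 of 1000 positions. The 100 kb limit left out 4 regions whose nearest gene is a member, the nearest of them 156.0 kb from Dusp4, and the farthest kept lies 67.6 kb from Dusp5. Python 3.11.15 with numpy 2.4.6, scipy 1.17.1 and matplotlib 3.10.9 was used. Alternatives changed the distance limit, assignment rule, competing genes, edge, chromosomes, nearness to gene ends, width and members.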

Additional observations from a re-analysis of the deposited data

How the results depend on the processing

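Of 81 values under an alternative, 75 stayed within the interval of the value reported or, for counts, within 1.5 times of it. Restricted to regions wider than 276 bp, members with a region were 32 in place of 53. The Treg-specific share of Treg Bcl11b regions was then 5.88% in place of 21.6%. The Foxp3-shared part of Bcl11b regions was 96.0% and the Bcl11b-shared part of Foxp3 regions was 54.5%. Fewer regions enter by construction, and over all regions the same restriction gave 7.5%, 96.5% and 46.7% for the 3 shares. The cut removes most Treg-specific and Bcl11b-only regions, which are largely 198 bp wide. It therefore cannot decide whether a difference from all regions holds. With regions near gene ends left out, the Treg-specific share was 36.8% of 19 regions, inside the interval of the reported share and over 1.5 times its value. The same restriction raises the share over all regions, where 13.6% of Treg-specific and 50.2% of common regions lie near a gene end. The share of member regions near a gene end was 46.3% with gene bodies extended by 10 kb and 43.7% with a limit of 2.5 kb, in place of 33.8%. The alternatives without Dusp5, and with only regions also listed in the Tn or KIKO comparison, were chosen after the lists were seen. No paired analysis was possible because the lists are per group and hold no value per replicate, and for the same reason no replicate could be left out. The depth behind the lists is unknown, so a region that is not listed cannot be told from one that was not detectable.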
